A study of Mus musculus with 9 samples.

Results

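Solute carriers are membrane proteins that move transmitters, amino acids, sugars, metals, nucleosides, ions and other solutes across the cell surface or the membranes of organelles. In the brain, neurons and astrocytes use them to clear and repackage transmitters, the choroid plexus uses them to move solutes into cerebrospinal fluid, and phagocytes use them in lysosomes to release the products of digestion. The genes described here are those whose symbol follows the solute carrier pattern (Slc, a family number and a letter) and that stand in at least 1 of the authors' deposited tables of changed genes, with Slc17a6 and Slc13a4 left out. There were 63 such genes among 4277 genes in the tables, 61 of them in the table for stroke against sham and 12 in the table for mmpp against stroke. Of these, 10 stood in both. The tables keep genes whose p-value was under 0.05 and whose change was at least 2-fold, so every member had differed in a comparison by the way it was chosen, and the counts below describe the members and test nothing.

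RNA came from the thalamus of wild-type C57/BL mice on day 7 in 9 samples, 3 each of sham, of photothrombotic stroke (a light-activated dye clots the vessels) and of mmpp, which the labels do not spell out. The study injected a melanin nanozyme (particles that act like enzymes), and the labels do not say which groups were injected, nor the age of the mice or whether a sample was 1 animal or a pool. Values are the authors' group means in TPM, a share of all transcripts scaled for gene length. Where a pair of means stands without group names, the first is sham and the second stroke. Values per library were not analysed here, so the depth and the spread within a group are unknown and no error stands beside a mean. A fold change is the ratio of those means, and q is the authors' adjusted p-value. Rose and fell are kept for genes with a q-value under 0.05, and a gene above that limit is only called listed higher or lower. Thalamic markers were present, with Tcf7l2 at 64.4 TPM and Gbx2 at 36.2 TPM in sham. Markers of neighbouring tissue were present as well, with the choroid plexus gene Ttr at 4317 TPM and the dopamine synthesis gene Th at 40.9 TPM in sham.

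Members that rose after stroke included carriers of lysosomes, amino acids, lactate and iron, led by Slc15a3 (36.4-fold), Slc17a9 (12.7-fold) and Slc11a1 (12.4-fold) in the authors' deposited table. Carriers of neurotransmitters were listed lower in 8 of 9 cases, 4 of which fell. Of the 61 members in the authors' deposited table for stroke against sham, 28 were listed higher and 33 lower, which is 45.9% and 54.1%, beside 60.6% and 39.4% of all 4071 listed genes. With a q-value under 0.05, 27 rose and 13 fell, which is 44.3% and 21.3% of the members, beside 49.4% and 17.2% of all listed genes. The share of solute carrier genes that was listed lay near the background, with 60 of 369 protein-coding genes of the family (16.3%) and 3434 of all 21951 protein-coding genes (15.6%) in GENCODE M21. Because TPM is a share, the larger share taken in stroke by the genes listed higher moves the rest by -0.28 on the log2 scale. Removing that shift raises every log2 fold change by the same amount, so the 28 higher members could only stay past the 2-fold limit. Of the 33 lower members, which alone could drop out, 19 stayed past it, 8 of them among the 13 that fell.

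**Figure D1:**
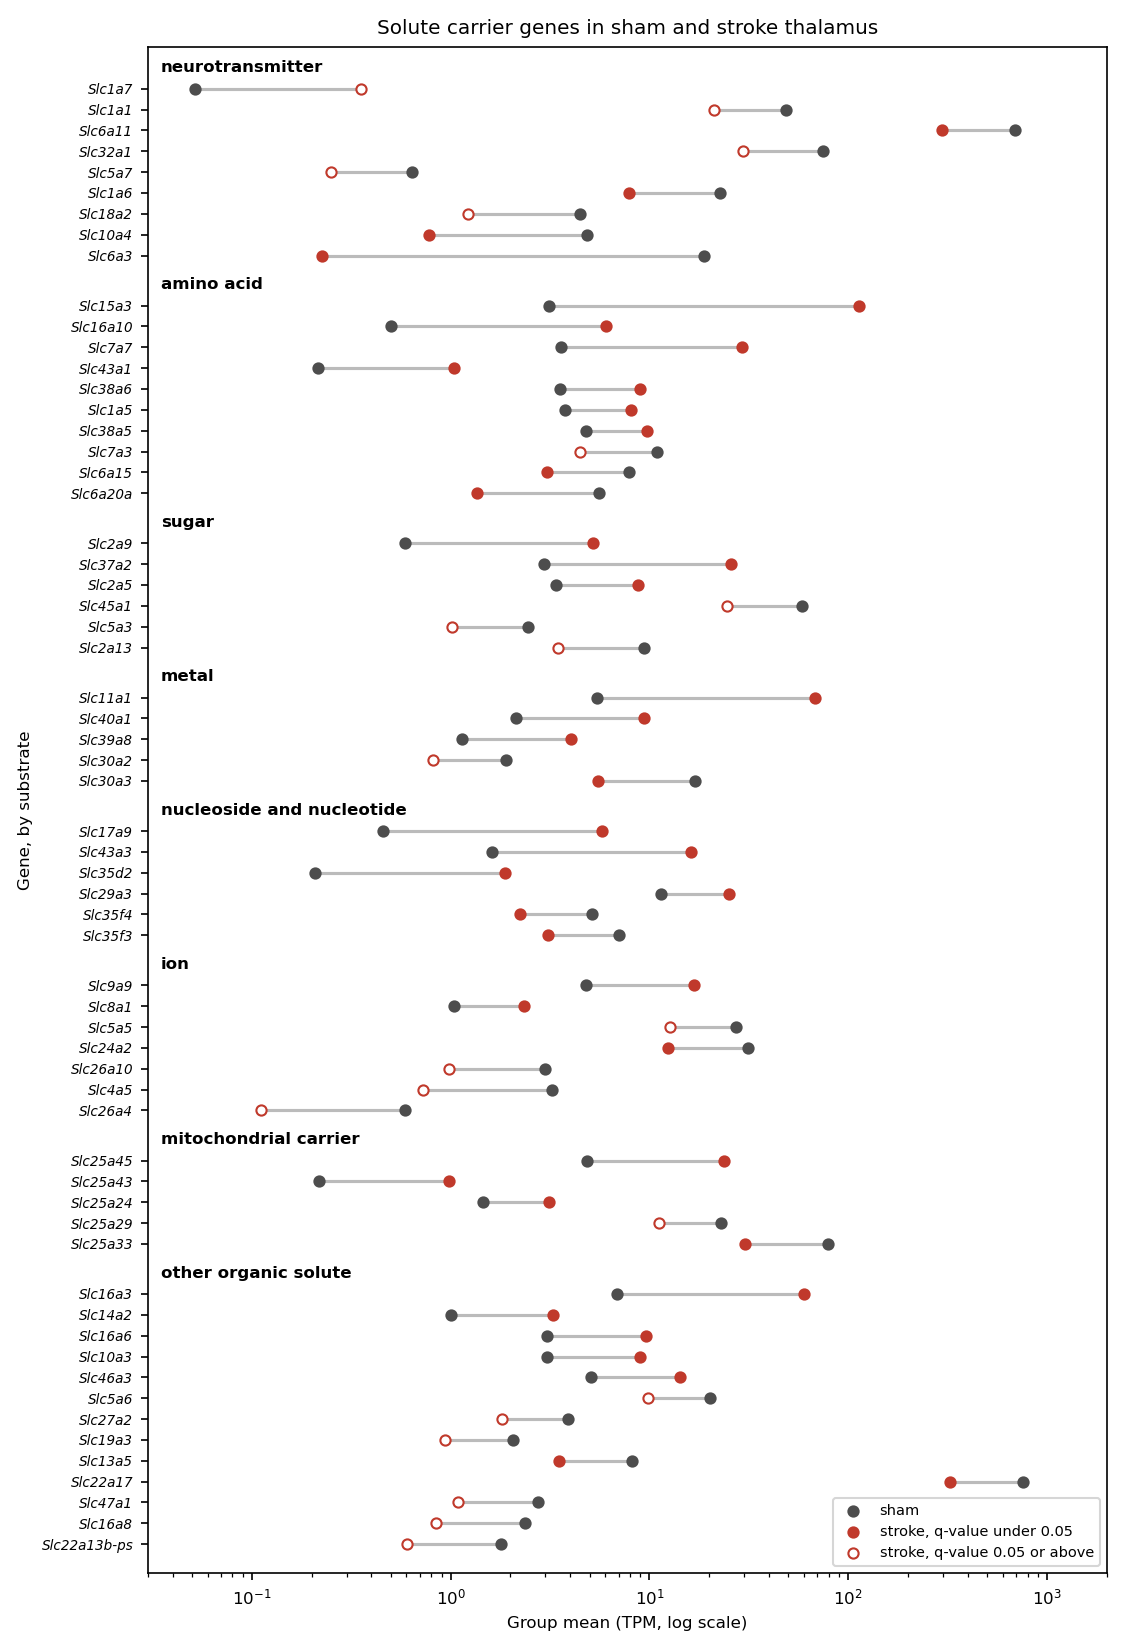
Authors' mean TPM (x axis, log scale) of the 61 solute carrier genes listed for stroke against sham, 1 gene a line, grouped by substrate. Grey points are sham and red points stroke, filled where q was under 0.05. Slc6a3 ran from 18.8 TPM down to 0.225 and Slc15a3 from 3.11 TPM up to 113.

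The lower members had the higher median level in sham, as did all listed lower genes. The median was 7.87 TPM for the lower members and 2.996 TPM for the higher members, beside 18.1 and 1.13 TPM for all listed lower and higher genes. The median log2 fold change was 2.16 among higher members and -1.34 among lower members, beside 2.34 and -1.31 among all listed higher and lower genes. More than 8-fold differences were found for 10 of 28 higher members and for 1 of 33 lower members, the dopamine transporter gene, beside 37.8% of all listed higher genes and 5.24% of all listed lower genes. A pair of genes held most of the summed level in sham. The astrocytic GABA transporter gene Slc6a11 and Slc22a17, which encodes a receptor for lipocalin-2, had means of 692 and 759 TPM in sham, out of 2040 TPM over the 61 members, and 296 and 325 TPM in stroke, out of 1308 TPM. Both had a log2 fold change of -1.22, and neither stayed past the 2-fold limit with the shift of -0.28 removed. Among members near the limits of the table for stroke against sham, Slc25a29 (log2 fold change -1.03) and Slc38a5 (1.03) were closest to the fold limit, and Slc30a2 (p = 0.0480) was closest to the p limit in the authors' deposited table. In the table for mmpp against stroke, Slc16a6 was closest to the fold limit (log2 fold change -1.0035) and Slc17a9 to the p limit. Slc8a1 (q = 0.0449) stood just inside the q-value limit and Slc1a1 (q = 0.0510) just outside it in the authors' deposited table.

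**Figure D2:**
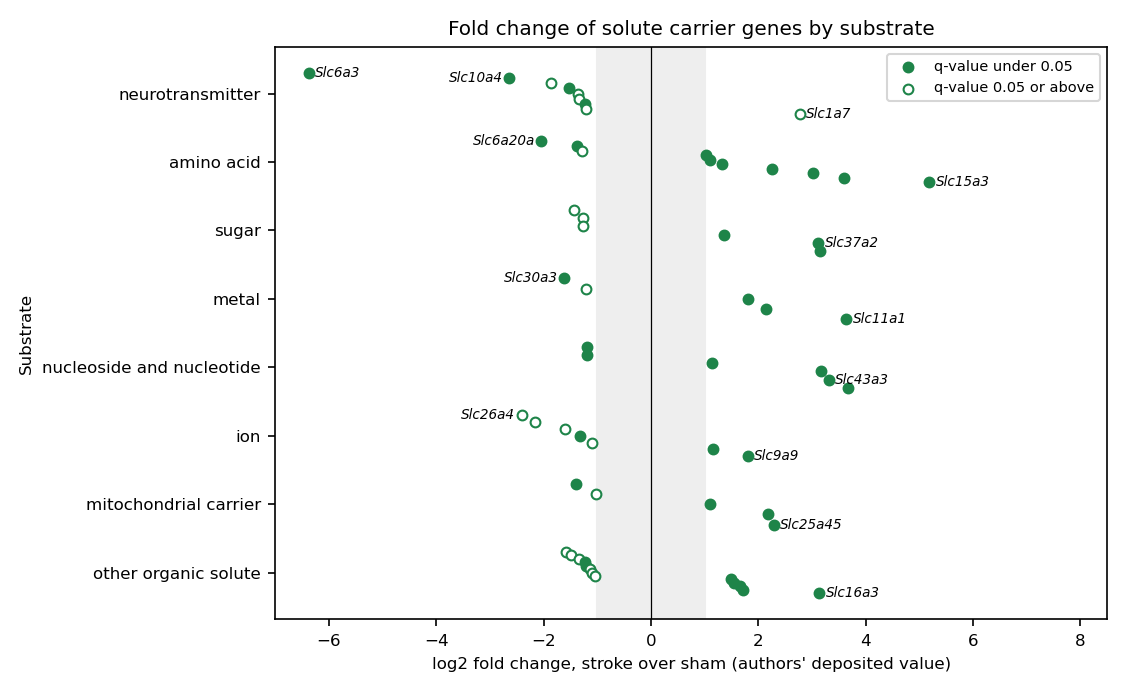
Log2 fold change of stroke over sham (x axis) for the same 61 genes by substrate (y axis), 1 point a gene, filled where q was under 0.05. The grey band is the range under 2-fold, in which the tables list no gene. Neurotransmitter members lie on the lower side except Slc1a7, and 7 of 10 amino acid members lie on the higher side.

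The bases just before the transcription start are shown for 4 members that changed after stroke, picked after the search because they hold the E-box CACGTG, a motif that many helix-loop-helix factors bind. Capitals mark that motif, and the sequences are RefSeq's on GRCm38.p6, each covering 250 bases on the plus strand up to the start. Slc6a3 and Slc1a6 fell, and Slc43a1 and Slc38a5 rose. Slc6a3 lies at chr13:73536497-73536746, Slc1a6 at chr10:78780246-78780495, Slc43a1 at chr2:84840073-84840322 and Slc38a5 at chrX:8271131-8271380.
Slc6a3: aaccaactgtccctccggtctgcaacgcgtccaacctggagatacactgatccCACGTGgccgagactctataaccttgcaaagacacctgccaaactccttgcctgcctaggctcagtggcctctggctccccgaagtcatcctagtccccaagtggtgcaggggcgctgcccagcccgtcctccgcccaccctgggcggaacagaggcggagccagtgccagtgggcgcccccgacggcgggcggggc
Slc1a6: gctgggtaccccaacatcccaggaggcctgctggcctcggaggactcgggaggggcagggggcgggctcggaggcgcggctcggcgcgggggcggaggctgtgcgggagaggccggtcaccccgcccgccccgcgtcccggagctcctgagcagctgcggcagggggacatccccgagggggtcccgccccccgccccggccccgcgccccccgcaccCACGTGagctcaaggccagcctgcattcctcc
Slc43a1: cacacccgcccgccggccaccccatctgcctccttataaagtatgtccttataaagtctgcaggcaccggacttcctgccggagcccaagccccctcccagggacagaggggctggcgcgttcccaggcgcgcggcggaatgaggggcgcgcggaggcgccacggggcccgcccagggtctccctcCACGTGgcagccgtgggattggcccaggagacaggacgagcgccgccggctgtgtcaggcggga
Slc38a5: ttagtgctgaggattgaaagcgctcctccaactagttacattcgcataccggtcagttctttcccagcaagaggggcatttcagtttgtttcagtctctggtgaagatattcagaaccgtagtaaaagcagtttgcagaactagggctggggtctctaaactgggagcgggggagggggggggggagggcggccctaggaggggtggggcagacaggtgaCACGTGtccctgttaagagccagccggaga
The motif begins 197 bases before the start in Slc6a3, and 32, 64 and 30 bases before it in Slc1a6, Slc43a1 and Slc38a5. Windows were found for 48 of the 63 members. The E-box, the same on both strands, stood in 4 of 19 members listed higher and in 3 of 28 listed lower, beside 6.86% of all 27025 genes with a window. The myeloid PU.1 motif GAGGAAGT, searched on both strands, stood in none of those 47 members and in 2.79% of all genes. A match describes the letters and is not a binding site.

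Transporters of neurotransmitters were nearly all lower in stroke. Of 9 listed members 4 fell, 4 more were listed lower and 1 was listed higher, beside 39.4% of all listed genes that were lower. Slc6a3, which takes dopamine back into the cell, fell 83.3-fold, from 18.8 to 0.225 TPM (q = 2.2e-19, authors' deposited table). With a stroke mean this low the fold is imprecise, and group means cannot show whether all samples were low. The vesicular monoamine transporter gene Slc18a2 had a mean of 4.48 TPM in sham, against 1.22 in stroke (q = 0.0813, authors' deposited table). Slc10a4, found on synaptic vesicles of monoamine and acetylcholine neurons, fell 6.24-fold from 4.84 to 0.776 TPM (q = 0.000189, authors' deposited table). Other genes of dopamine neurons had smaller folds than Slc6a3, a difference that was not tested. In the authors' deposited table Th fell 3.22-fold (40.9 to 12.7 TPM), and the midbrain transcription factor genes Pitx3 and En1 fell 7.26-fold and 4.53-fold. Ddc, which completes dopamine synthesis, was listed lower, 25.5 against 11.6 TPM (q = 0.0802, authors' deposited table). Of the 6 markers of midbrain dopamine neurons, 4 were listed, all lower, and these summed to 70.3 TPM in sham and 25.0 in stroke. Their part in the values of Slc6a3, Slc18a2 and Slc10a4 was not tested. In bulk tissue, fewer cells of a type, less RNA per cell and less neighbouring tissue in a sample cannot be told apart.

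Carriers of glutamate, GABA and choline made up the rest of that group. Slc6a11, the GABA transporter of astrocytes, fell 2.34-fold (q = 0.0276, authors' deposited table). Of 6 astrocyte markers only Gfap and Aqp4 were listed, and they rose 6.25-fold and 2.97-fold in the same authors' deposited table. Slc32a1, which loads GABA and glycine into vesicles, had a mean of 74.5 TPM in sham, against 29.5 in stroke (q = 0.0608, authors' deposited table). The neuronal glutamate transporter gene Slc1a1 was at 48.4 and 21.02 TPM (q = 0.0510, authors' deposited table). Slc1a6, a glutamate transporter best known from cerebellar Purkinje cells, fell from 22.7 to 7.87 TPM (q = 5.94e-05, authors' deposited table). The choline transporter gene Slc5a7 was near 0 in both groups, at 0.641 and 0.250 TPM (q = 0.110, authors' deposited table). Only Slc1a7, known from the retina, was listed higher, at 0.0517 and 0.353 TPM (q = 0.0916, authors' deposited table), and a fold against a mean this low is uncertain in size. The chief astrocytic glutamate transporter genes Slc1a2 and Slc1a3 were not in either table, which does not show that they were unchanged. Of 8 genes that make or break down GABA and glutamate, 4 were listed, all lower, and 3 of them fell. Gad1, which makes GABA, fell from 83.9 to 27.0 TPM (authors' deposited table). Of 6 neuron markers 4 were listed, all lower, and summed to 2245 TPM in sham and 932 in stroke. Of 6 thalamic relay markers 4 were listed, all lower, and summed to 915 and 428 TPM. Calb2, only listed lower (q = 0.153, authors' deposited table), held 792 and 386 TPM of those sums. The other 3 listed relay markers, Rora, Gbx2 and Tcf7l2, fell. The part of the neuron and relay markers in the transporter values was not tested.

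Of 10 listed amino acid and peptide transporters 7 rose, 2 fell and 1 was listed lower. Beside these counts, 60.6% of all listed genes were higher and 39.4% lower, and 49.4% rose. The same shares of all listed genes stand beside each substrate group below, and no difference from them was tested. Slc15a3, which carries histidine and small peptides out of lysosomes, rose 36.4-fold, from 3.11 to 113 TPM (q = 2.18e-28, authors' deposited table). The aromatic amino acid transporter gene Slc16a10 rose from 0.499 to 6.05 TPM and Slc7a7, which exchanges cationic for neutral amino acids, from 3.58 to 29.2 TPM (authors' deposited table). Slc7a7 is known from macrophages and epithelia. The carriers of glutamine and other neutral amino acids rose less. Slc1a5 rose from 3.76 to 8.11 TPM, Slc38a5 from 4.77 to 9.73 TPM and Slc38a6 from 3.57 to 8.99 TPM (authors' deposited table). Slc43a1, a carrier of large neutral amino acids, rose 4.79-fold but only reached 1.04 TPM (authors' deposited table). Those that fell were Slc6a15, a neutral amino acid transporter of neurons, from 7.87 to 3.05 TPM (q = 0.0167), and the proline transporter gene Slc6a20a, from 5.57 to 1.35 TPM (q = 0.0196, authors' deposited table). The arginine transporter gene Slc7a3 was at 10.9 and 4.46 TPM (q = 0.0967, authors' deposited table). Slc6a20a has a close paralogue, and reads that match both could be split between them.

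Of 6 sugar transporters 3 rose and 3 were listed lower. Slc37a2, a sugar phosphate exchanger of macrophages, rose 8.70-fold from 2.95 to 25.6 TPM (q = 1.58e-17, authors' deposited table). Slc2a9, grouped here by family although it chiefly carries urate, rose from 0.590 to 5.21 TPM, and the fructose transporter gene Slc2a5, a gene of microglia in the brain, from 3.41 to 8.80 TPM (authors' deposited table). The other members were listed lower with a q-value above 0.05. They were Slc45a1, a proton-coupled sugar transporter, at 58.8 TPM in sham and 24.6 in stroke, and the inositol transporter genes Slc2a13, at 9.34 and 3.47 TPM, and Slc5a3, at 2.44 and 1.01 TPM. Their q-values in that order were 0.0870, 0.0598 and 0.155 (authors' deposited table). The main glucose transporter genes of the brain barrier and of neurons, Slc2a1 and Slc2a3, were not in either table. Among 14 glycolysis genes, 3 rose, and 2 were listed lower. The hexokinase genes Hk3 and Hk2 rose 37.3-fold and 14.2-fold, and Pfkfb3, a regulator of glycolysis, 2.96-fold in the authors' deposited table. Pfkm was listed lower, at 479 TPM in sham and 221 in stroke (q = 0.0992, authors' deposited table). Slc16a3, the lactate exporter of glycolytic cells, rose 8.77-fold from 6.84 to 60.0 TPM (q = 3.47e-22, authors' deposited table).

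Of 5 metal transporters 3 rose, 1 fell and 1 was listed lower. Slc11a1, which pumps iron and manganese out of the phagosome, rose 12.4-fold from 5.44 to 67.7 TPM (q = 1.05e-15, authors' deposited table). Slc40a1, ferroportin, the iron exporter of the cell surface, rose from 2.14 to 9.42 TPM (q = 0.0159), and the zinc and manganese importer gene Slc39a8 from 1.15 to 4.02 TPM (q = 0.0148, authors' deposited table). Slc30a3, which loads zinc into synaptic vesicles, fell from 16.96 to 5.51 TPM (q = 0.000103, authors' deposited table). Slc30a2, another zinc exporter, was at 1.89 and 0.820 TPM (q = 0.181, authors' deposited table). Of 12 genes of iron and zinc handling, 3 were listed and all rose. They were the ferritin light chain gene Ftl1, from 651 to 4565 TPM, the ceruloplasmin gene Cp, from 4.27 to 16.1 TPM, and the haem oxygenase gene Hmox1, from 16.6 to 279 TPM (authors' deposited table).

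Nucleoside, nucleobase and nucleotide carriers had 4 members that rose and 2 that fell. Slc17a9, which loads ATP into vesicles, rose 12.7-fold from 0.457 to 5.80 TPM, and Slc43a3, a purine base transporter, 9.97-fold from 1.62 to 16.1 TPM (authors' deposited table). Slc29a3, the nucleoside transporter of lysosomes, rose from 11.5 to 25.1 TPM (q = 0.0234), and the nucleotide sugar transporter gene Slc35d2 from 0.207 to 1.87 TPM (q = 0.000175, authors' deposited table). Slc35f3 and Slc35f4, placed here by family, fell from 7.05 to 3.08 TPM and from 5.13 to 2.24 TPM (authors' deposited table). For the F members no nucleotide substrate is established.

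Transporters of inorganic ions were mostly lower, with 2 that rose, 1 that fell and 4 listed lower. Slc9a9, a sodium and proton exchanger of endosomes, rose from 4.78 to 16.7 TPM (q = 0.00016), and Slc8a1, a sodium and calcium exchanger, from 1.04 to 2.33 TPM (q = 0.0449, authors' deposited table). Its neuronal relative Slc24a2, which also moves potassium, fell from 31.3 to 12.4 TPM (q = 0.0327, authors' deposited table). Slc4a5, a bicarbonate transporter of the choroid plexus, was at 3.25 and 0.727 TPM (q = 0.0689, authors' deposited table). The iodide transporter gene Slc5a5 was at 27.2 and 12.7 TPM, the anion exchanger gene Slc26a4 at 0.588 and 0.111 TPM and Slc26a10 at 2.99 and 0.986 TPM, with q-values of 0.0748, 0.0800 and 0.134 in the authors' deposited table. Of the 6 sodium pump genes, which build the sodium gradient that many carriers use, 2 were listed, both lower. Atp1b1 fell from 688 to 259 TPM (authors' deposited table). Of 8 choroid plexus markers 7 were listed, all lower, and summed to 4615 TPM in sham and 438 in stroke. Ttr alone held 4317 and 372 TPM of those sums. The other listed markers were between 2.69-fold (Otx2) and 8.70-fold (Kcnj13) lower (authors' deposited table). The part of the choroid plexus markers in the values of Slc4a5, and of Slc16a8, which is also known from the choroid plexus, was not tested.

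Mitochondrial carriers had 3 members that rose and 1 that fell. Slc25a45 rose 4.90-fold from 4.86 to 23.8 TPM (q = 1.07e-07, authors' deposited table). The ATP and phosphate carrier gene Slc25a24 rose from 1.45 to 3.13 TPM and Slc25a43 from 0.217 to 0.981 TPM (authors' deposited table). Slc25a33, which imports pyrimidine nucleotides, fell from 79.4 to 30.2 TPM (q = 0.0108, authors' deposited table). Slc25a29, a carrier of basic amino acids, was at 22.8 and 11.2 TPM (q = 0.146, authors' deposited table).

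Among 13 members with other organic solutes, 5 rose, 2 fell and 6 were listed lower. Beside Slc16a3, those that rose were Slc16a6, a ketone body transporter, from 3.05 to 9.63 TPM, the urea transporter gene Slc14a2, from 1.001 to 3.28 TPM, the lysosomal Slc46a3, from 5.07 to 14.2 TPM, and Slc10a3, from 3.05 to 8.92 TPM (authors' deposited table). Slc22a17 fell 2.34-fold (q = 0.0248) and the citrate transporter gene Slc13a5 fell from 8.16 to 3.51 TPM (q = 0.0401, authors' deposited table). The 6 others had q-values between 0.0670 and 0.139 in the authors' deposited table. They were the fatty acid transporter gene Slc27a2 (3.88 and 1.81 TPM), the biotin and pantothenate transporter gene Slc5a6 (20.1 and 9.79 TPM), the cation exporter gene Slc47a1 (2.76 and 1.09 TPM), the thiamine transporter gene Slc19a3 (2.06 and 0.936 TPM), the lactate transporter gene Slc16a8 (2.37 and 0.846 TPM) and the pseudogene Slc22a13b-ps (1.80 and 0.602 TPM).

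The annotation that the authors' tables carry gave a further view. Of 61 members, 5 were annotated to the lysosome, and 3 of them rose, Slc11a1, Slc15a3 and Slc29a3. The other two were the zinc transporters Slc30a3 and Slc30a2. Among members annotated to a synapse, axon or synaptic vesicle, 4 were lower (Slc6a3, Slc32a1, Slc5a7 and Slc30a3) and 1 higher (Slc40a1). All listed genes with that annotation, members included, were higher in 22.4% of cases, and those annotated to the lysosome in 75.2%. Sodium ion transport was the annotation of 8 members, 6 of them lower. All 16 listed genes with it were higher in 12.5% of cases. These 16 include the members, and the only 2 higher ones were the members Slc8a1 and Slc9a9, so that share is no separate background. All 6 microglia markers rose in the authors' deposited table, and summed to 242 TPM in sham and 1994 in stroke. Of 6 markers of infiltrating myeloid cells 5 were listed higher, with 8.31 TPM in sham and 22.9 in stroke, and of 6 markers of fibroblasts and meninges 5 were listed higher, with 24.5 and 387 TPM. Of 6 astrocyte markers 2 rose, of 6 endothelial markers 1, Cdh5, and no oligodendrocyte marker was listed. No listed marker stood at the lowest deposited value, and Ccr2 was nearest to 0, at 0.0714 TPM in sham. The part of these cells in the values of the higher transporters was not tested.

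**Figure D3:**
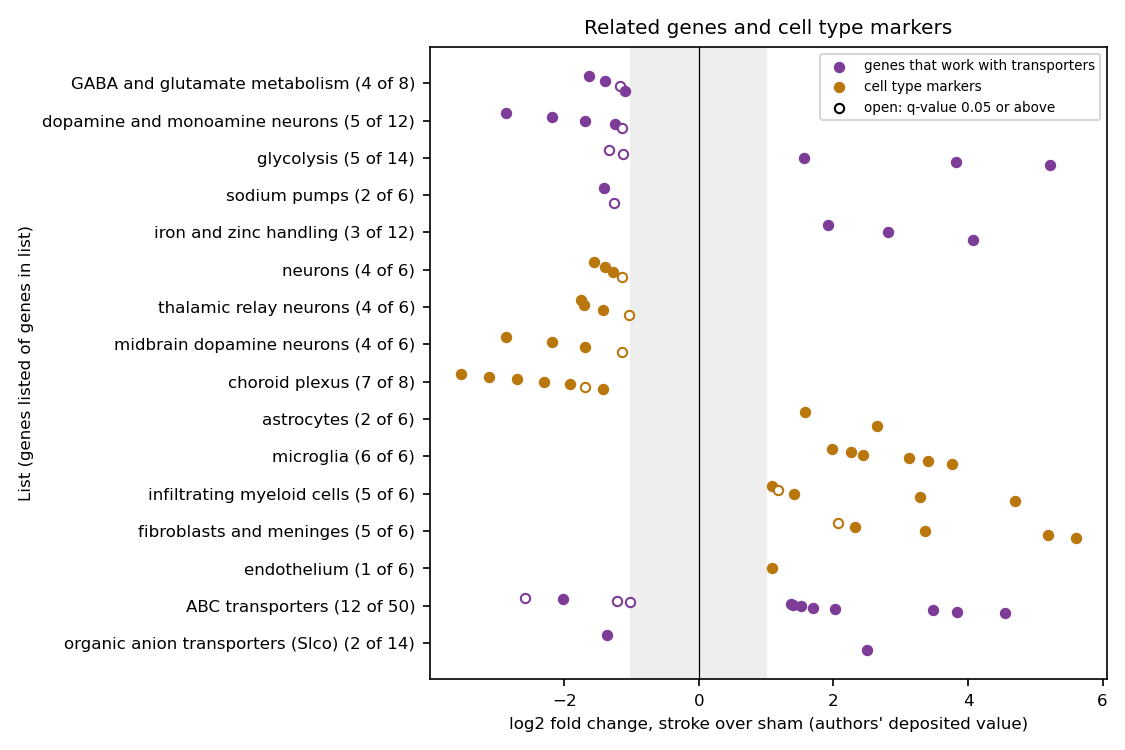
Log2 fold change of stroke over sham (x axis) for listed genes that work with the transporters (purple) and for listed cell type markers (orange), by list (y axis, with the number listed of the number in the list). Points are genes, filled where q was under 0.05. All 6 microglia markers lie on the higher side and all 7 listed choroid plexus markers on the lower side.

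The mmpp group was compared with stroke to ask which of these genes differed between them. No member passed a q-value of 0.05, beside 0.784% of the 1021 genes in that table, by the authors' test (program not given in the sources used here). At an unadjusted p under 0.05, 12 members were listed, 7 higher (58.3%) and 5 lower (41.7%) in mmpp, beside 25.9% and 74.1% of all listed genes. These 12 were 3.25% of the 369 protein-coding genes of the family, beside 3.84% of all protein-coding genes. Their q-values ran between 0.263 and 0.823 in the authors' deposited table. Means for mmpp exist here only for those 12, and the other 51 members, among them Slc6a3, Slc15a3, Slc11a1 and Slc6a11, have none. Both comparisons use the same stroke samples, so a high or low chance value there moves them in opposite directions, and the means are given side by side without a test.

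Transporters of neurons were among those listed higher in mmpp. Slc1a6 had means of 22.7 (sham), 7.87 (stroke) and 19.5 TPM (mmpp) (q = 0.280 for mmpp against stroke, authors' deposited table). The choline transporter gene Slc5a7 had 0.641, 0.250 and 0.901 TPM in sham, stroke and mmpp (q = 0.263, authors' deposited table), the smallest q-value of the 12 and a level near 0 in every group. The vesicular zinc transporter gene Slc30a3 had means of 16.96, 5.51 and 14.2 TPM, and the amino acid transporter gene Slc6a15 of 7.87, 3.05 and 6.45 TPM (authors' deposited table). The inositol transporter gene Slc5a3 had 2.44, 1.01 and 2.22 TPM, and the anion exchanger gene Slc26a4 0.588, 0.111 and 0.502 TPM (authors' deposited table). Slc35e2 was listed for this comparison alone, with 2.96 TPM in stroke against 6.53 in mmpp (q = 0.815, authors' deposited table).

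The 5 members listed lower in mmpp carry sugar phosphates, ATP, metals, ketone bodies and calcium. The sugar phosphate exchanger gene Slc37a2 had means of 2.95 (sham), 25.6 (stroke) and 10.8 TPM (mmpp) (q = 0.783, authors' deposited table), so its mmpp mean was 3.66 times that of sham. Slc17a9, the vesicular ATP carrier, had 0.457, 5.80 and 2.46 TPM (q = 0.823, authors' deposited table), and its mmpp mean was 5.38 times that of sham. The metal importer gene Slc39a8 had 1.15, 4.02 and 1.77 TPM, and the ketone body transporter gene Slc16a6 had 3.05, 9.63 and 4.80 TPM (authors' deposited table). Slc24a5, a calcium exchanger known from pigment cells that was not listed for stroke against sham, had 3.76 TPM in stroke, against 1.46 in mmpp (q = 0.632, authors' deposited table). Of the lists of related genes, glycolysis had Hk3 and Pfkfb3 listed lower in mmpp, and iron and zinc handling had Cp and Ftl1 listed lower. No gene of GABA and glutamate metabolism, of dopamine neurons or of the sodium pumps was listed, nor any microglia, choroid plexus or neuron marker. Of the thalamic relay markers Gbx2 was listed higher, with 11.1 TPM in stroke against 23.5 in mmpp (q = 0.726, authors' deposited table). Of the markers of infiltrating myeloid cells Ccr2 and Itgal were listed lower, and of those of fibroblasts and meninges Col1a1 and Dcn, with 169 and 40.6 TPM in stroke against 48.1 and 11.2 in mmpp (authors' deposited table). Their part in the mmpp values was not tested.

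**Figure D4:**
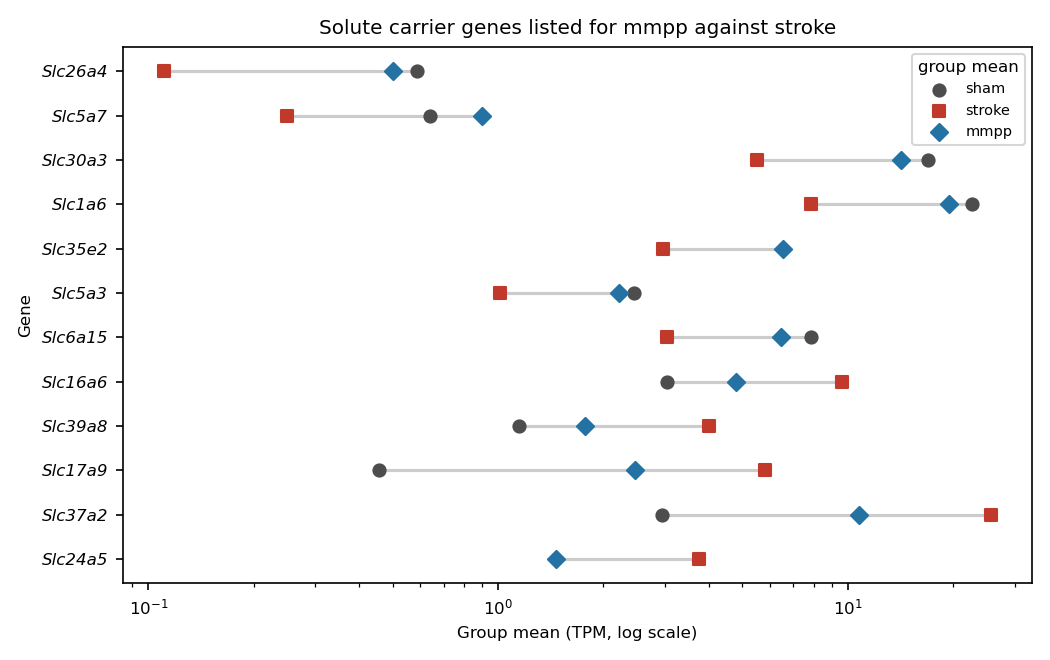
Authors' mean TPM (x axis, log scale) of the 12 solute carrier genes listed for mmpp against stroke (y axis), with circles for sham, squares for stroke and diamonds for mmpp. Slc24a5 and Slc35e2 have no sham mean here. For Slc1a6 the marks stand at 22.7, 7.87 and 19.5 TPM, and for Slc37a2 at 2.95, 25.6 and 10.8 TPM.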

How the data were processed

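RNA was extracted with TRIzol and made into libraries with the SMARTER mRNA kit, per the labels' protocols. The submitters' processing notes name Bowtie2 2.2.3, TopHat2 2.0.12, HTSeq 0.6.0 and GRCm39, with no role for any. The sources used here do not give how reads of several genes or of either strand were counted. Each row of the authors' deposited tables is a gene with the mean TPM of both groups, the log2 fold change and its p-value and q-value, per the file headers. A recomputed log2 ratio of the deposited means matched the deposited log2 fold change, so no pseudocount was added to those means. The match cannot show whether the means already held an offset. A floor is visible, since many means shared the lowest value of 0.0001 TPM. For stroke against sham, 174 sham means and 29 stroke means of listed genes stood at that value, and the fold changes of those genes depend on it. Such genes are part of the shares given for all listed genes. No listed gene had a p-value of 0.05 or above or a log2 fold change between -1 and 1. No new test was run, and depth is unknown. No member stood at the lowest deposited mean of 0.0001 TPM.

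The members, the 8 substrate groups, the 10 marker lists and the 7 lists of related genes were chosen with earlier results of these data known. Members were grouped by textbook substrate. Every member listed in both tables was named, as were up to 8 members a group with a q-value under 0.05 and, by level, the rest. Promoter motifs, the annotation terms and Lcn2 were chosen later. A few genes of these lists are counted but not reported by name here. Annotated genes were counted by Ensembl identifier in GENCODE M21 (GRCm38), from which no coordinate was used. The labels do not say that samples are separate animals, so the authors' p-values may measure technical spread. Summaries used pandas 2.3.3 in Python 3.11.15, and alternatives were other q-value limits, a filter on low means, a pseudocount of 1 TPM and other scalings.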

Additional observations from a re-analysis of the deposited data

How the results depend on the processing

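With the q-value limit at 0.01, the count of members that fell after stroke went from 13 to 4, and with the limit at 0.1 it was 25. The count that rose was 18 and 28 at those limits, against 27. Leaving out members under 1 TPM in both groups gave 26 and 13. The median log2 fold change of the 61 members in stroke against sham was -1.10. It was -0.66 after adding 1 TPM to each mean, -0.81 when scaled to the TPM left without the listed higher genes, and -0.93 when scaled to the TPM left without all listed genes, a setting chosen after seeing the data. The median of the 12 members in mmpp against stroke was 1.11. It was 0.52 after adding 1 TPM, and 0.0399 without members under 1 TPM in both groups, which takes out Slc5a7 and Slc26a4, both higher in mmpp. A shift of more than 0.1 was taken as a move, since no replicate spread is known. No listed gene lies between -1 and 1, so the unscaled medians largely follow the split of higher and lower members. Each scaling moves all members by the same amount, so its effect on the median was fixed by that amount. The mmpp count of 0 stayed 0 at each limit. No paired analysis was possible because the tables hold group means, and for the same reason no replicate could be left out in turn. Group means limit what can be said of any transporter near 0, such as Slc1a7 or Slc5a7.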

Other observations

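The other large families of transporters gave the following. Of 50 ABC transporter genes, which use ATP to move lipids and drugs, 8 rose and 1 fell after stroke, and 3 more were listed lower. Beside these counts, 15.6% of all protein-coding genes were listed, and 60.6% of all listed genes were higher. In the authors' deposited table the cholesterol exporter gene Abca1 rose from 2.43 to 34.7 TPM and Abcc3 from 2.11 to 23.5 TPM, and Abca4 fell from 6.38 to 1.58 TPM. Of 14 organic anion transporter genes 2 were listed. Slco2b1 rose from 9.42 to 53.4 TPM, and Slco1c1, the thyroxine transporter of brain vessels and choroid plexus, fell from 29.7 to 11.6 TPM (authors' deposited table). In mmpp against stroke, Abca1, Abcg3 and Abcd2 were listed lower, with q-values of 0.548, 0.0972 and 0.594 in the authors' deposited table. Of all genes listed there, 74.1% were lower.

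Slc22a17, which fell from 759 to 325 TPM after stroke, encodes a receptor for lipocalin-2. The ligand gene Lcn2, chosen after its values were seen, had means of 5.15 (sham), 111 (stroke) and 44.3 TPM (mmpp) (q = 0.212 for mmpp against stroke, authors' deposited table).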
